A study of Mus musculus with 10 samples.

Results

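Aminoacyl-tRNA synthetases, with the D-aminoacyl-tRNA deacylases Dtd1 and Dtd2, were followed in mouse germinal vesicle oocytes depleted of CTCF and in wild-type germinal vesicle oocytes. Members were all probe sets whose single gene symbol is a lettered synthetase name (Aars, Aars2, Mars1 and so on), Eprs, Farsa, Farsb, Dtd1 or Dtd2. The rule found 77 probe sets of 37 genes among 45037 probe sets on the array, and 62 probe sets of 34 genes were bright enough to be tested. The groups were 5 arrays of CTCF-depleted oocytes and 5 arrays of wild-type oocytes. The labels gave no allele, transgene, strain or age, and no means of depletion. They did not say how many oocytes or animals stand behind a sample. The p-values therefore rest on how far these 10 samples vary, and that variation may be technical. Signals are linear MAS5 values with equal trimmed means on all arrays. They measure RNA, so a rise or fall of an enzyme below refers to its mRNA.

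Each synthetase joins an amino acid to the tRNAs that carry it, and this charging step sets which amino acid is read for a codon. Cytosolic enzymes serve the translation of nuclear genes. A separate set, encoded in the nucleus and imported, serves the mitochondrial ribosome, which makes subunits of the respiratory chain, and Gars and Kars supply both compartments from a single gene. Several cytosolic enzymes sit together in the multisynthetase complex. Dtd1 and Dtd2 hydrolyse wrongly charged tRNAs after the charging step, and Dtd1 removes D-amino acids. In bulk samples such as these, fewer cells of a type and less RNA per cell cannot be told apart.

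The median signal ran from 8.75 to 10.6 on depleted arrays and from 9.76 to 10.8 on wild-type arrays. The log2 ratio of 3-prime to 5-prime control signal for Actb and Gapdh, a measure of RNA integrity, ran from 2.60 to 2.96 on depleted arrays and from 2.80 to 3.11 on wild-type arrays. With no detection calls at hand, the highest of 27 Bacillus control probe sets was taken as each array's background, and it lay between 4.75 and 10.9 on depleted and between 6.15 and 10.2 on wild-type arrays. All 10 oocyte markers, Zp1, Zp2, Zp3, Gdf9 and Bmp15 among them, were above it on every array. Of 11 granulosa and cumulus markers measured, 7 were above it on every array, and the summed signal of all 11 was 780 to 946 on depleted and 706 to 1320 on wild-type arrays. Of these 11, 3 were called higher in depleted oocytes (Fshr, Nr5a2 and Ptgs2) and 0 lower, beside 7.26% and 9.12% of all tested genes. Of the same 11, 7 had negative log2 fold changes, among them Has2 at -0.96, Kitl at -0.45 and Inha at -0.43. Has2 was above background on only 1 depleted and 3 wild-type arrays. Inha read 536 on wild-type replicate 2, against 121 to 188 on the other wild-type arrays. Hsd17b1, Inhba, Fst and Foxl2 were also highest on that array, while Fshr and Has2 had their lowest wild-type values there. Fshr, Nr5a2 and Ptgs2 had log2 fold changes of 1.01, 0.31 and 1.41. Each was higher on every depleted array than on any wild-type array, as for 6.17% of all genes. Kitl was lower on every depleted array than on any wild-type array, as for 8.05% of all genes. The 9 blood, immune and endothelial markers summed to 129 to 167 on depleted and 131 to 164 on wild-type arrays, and 0 of the 6 tested were called. The part of other cells in the results was not tested. Ctcf itself averaged 20.7 ± 22.7 in depleted and 766 ± 74.1 in wild-type oocytes (SD, n = 5 each) on 1 probe set and 36.3 ± 33.7 against 1001 ± 76.0 on the other. The log2 fold changes were -5.43 and -5.01 (limma with Benjamini-Hochberg adjustment, adjusted p = 1.95e-08 and 1.59e-08), and depleted replicate 5 kept the highest Ctcf signal of its group, 61.1 and 95.8.

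Dtd1 stood far outside the range of the other members. Its signal was 504, 556, 454, 524 and 493 on the 5 depleted arrays, against 104, 68.5, 70.0, 77.2 and 66.5 on the 5 wild-type arrays. The lowest depleted array was 4.37 times the highest wild-type array, and all 10 arrays were above the background level. On the log2(signal + offset) scale the change, depleted over wild type, was 2.69 ± 0.11 (SE), with an adjusted p of 1.5e-10 by limma and Benjamini-Hochberg, a 6.45-fold rise with a 95% interval of 5.51 to 7.55. A two-sided exact permutation test on the mean signals gave p = 0.00794, the smallest that 5 arrays against 5 allow. Among 13811 genes Dtd1 had the 7th largest rise. Depleted replicate 5, with the most residual Ctcf signal, read 493 for Dtd1, inside the range of the other depleted arrays. The gene's second probe set was dim, at 2.71 ± 2.84 in depleted and 1.80 ± 2.21 in wild-type oocytes (SD, n = 5 each), above background on no array, and was not tested, so the rise rests on a single probe set. Dtd1 was already known to have risen when the group of genes was put together, and its value here is a description rather than independent support.

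The promoter of Dtd1 is shown because this gene carries the one large change among the members. The window, from RefSeq, spans 250 bases before to 50 bases after the annotated start and is read 5′ to 3′. It has no match to the amino acid response element described with Iars and Tars, and therefore no capitals.
Dtd1 (GRCm38.p6, chr2:144599703-144600002, plus strand): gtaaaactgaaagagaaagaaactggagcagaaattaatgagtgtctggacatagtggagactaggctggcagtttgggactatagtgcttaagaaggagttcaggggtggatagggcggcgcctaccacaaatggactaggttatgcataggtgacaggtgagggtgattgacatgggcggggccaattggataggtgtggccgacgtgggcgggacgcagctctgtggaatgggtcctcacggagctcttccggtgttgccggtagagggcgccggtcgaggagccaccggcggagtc

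**Figure D1:**
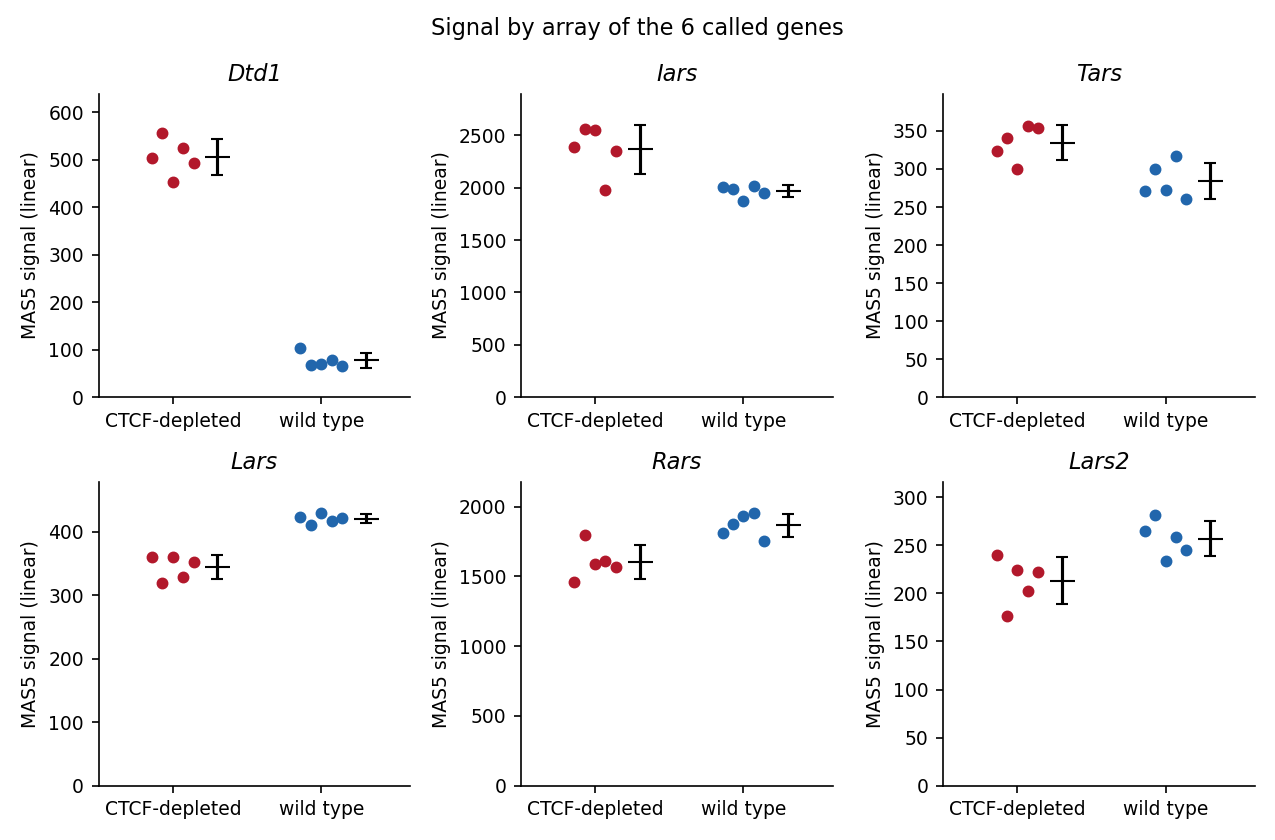
MAS5 signal (linear, axis from 0) of the 6 called genes on each of the 5 CTCF-depleted (left, red) and 5 wild-type (right, blue) arrays, brightest probe set per gene, with the mean and SD beside the points. The Dtd1 groups are separated by a wide gap, the Lars groups by a narrow one, and the groups of Iars, Tars, Rars and Lars2 overlap.

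Dtd2, which acts on wrongly charged tRNAs in animals as Dtd1 does, was weakly expressed and not called. Its brightest probe set read 20.7, 13.1, 22.4, 14.7 and 14.4 on depleted arrays, against 18.2, 18.2, 19.7, 17.5 and 14.5 on wild-type arrays, and the groups overlapped. The log2 fold change was -0.059 ± 0.18 (SE), with a 95% interval from 0.735-fold to 1.25-fold. A rise of the size seen for Dtd1 therefore lay outside the interval for Dtd2.

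The synthetases themselves moved little. Of 32 tested synthetase genes, each represented by its brightest probe set, 2 were called higher and 3 lower in depleted oocytes, or 15.6%, against 16.4% of all 13811 genes (7.26% higher and 9.12% lower). A call means an adjusted p under 0.05 in limma, adjusted over all 27022 tested probe sets. The share of calls among synthetases was thus near that of the whole array. Their median absolute log2 fold change was 0.11, against 0.16 over all genes. The 95% interval of the change lay within 1.2-fold in either direction for 13 of the 32, within 1.5-fold for 29 and within 2-fold for 31, against 25.9%, 63.4% and 87.8% of all genes. The synthetases were also measured more precisely, with a median standard error of 0.081, against 0.11 for all genes. Both comparisons depend on that precision, and whether synthetases changed less than other genes was not tested. Counted by probe set and with Dtd1 included, 4 of 62 members were higher and 3 lower, 11.3% in all, against 12.6% of all probe sets (5.48% higher and 7.12% lower). With each array centred on its median, 4 member genes were higher and 0 lower. The 5 called synthetases kept their sign under that centring, at 0.35 for Iars, 0.32 for Tars, -0.20 for Lars, -0.13 for Rars and -0.19 for Lars2, and the 3 falls lost their calls. Over all probe sets that centring turned 1481 higher and 1925 lower into 2179 and 1086.

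**Figure D2:**
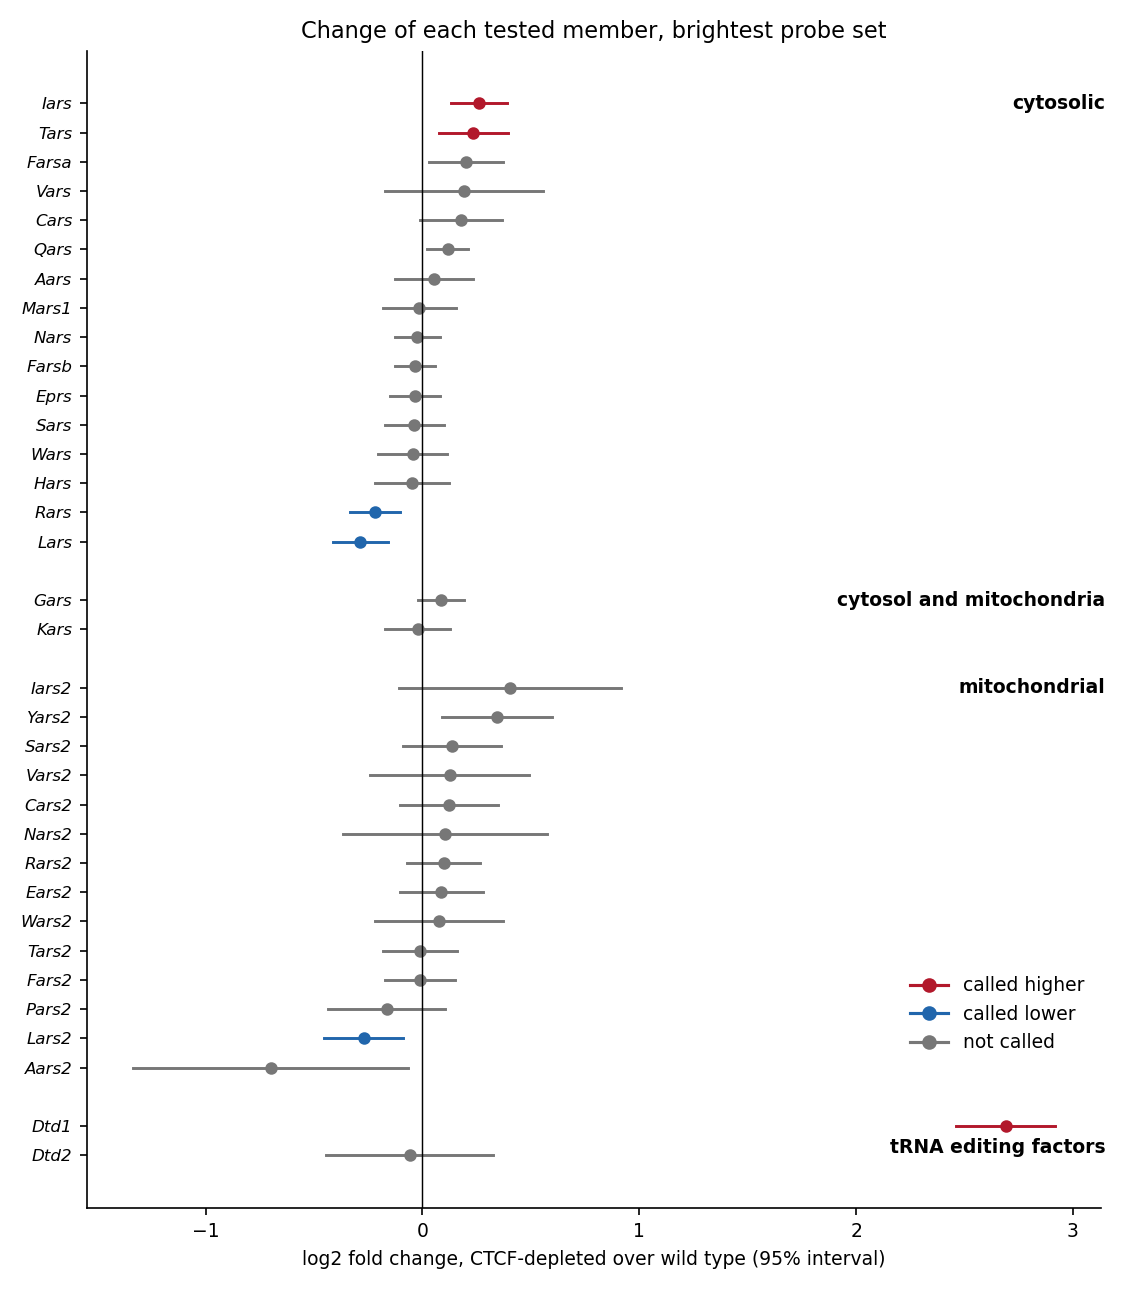
Log2 fold change, CTCF-depleted over wild type, of each of the 34 tested member genes (brightest probe set) with its limma 95% interval, grouped by the compartment of the enzyme; red and blue mark called rises and falls. Dtd1 lies at 2.69, while called synthetases lie between -0.29 and 0.26.

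Among cytosolic enzymes, the mRNAs for the isoleucine and threonine enzymes were called slightly higher and those for the leucine and arginine enzymes slightly lower. Tars, Lars and Rars each rest on a single probe set. Iars, which charges isoleucine tRNA, read 2388, 2558, 2551, 1980 and 2354 on depleted arrays, against 2008, 1985, 1875, 2018 and 1948 on wild-type arrays on its brightest probe set. Depleted replicate 4 fell among the wild-type values there and the other 4 depleted arrays lay above all of them. The rise was 0.26 ± 0.06 on the log2 scale (SE; 95% interval 1.096-fold to 1.31-fold, limma adjusted p = 0.0086). The second Iars probe set separated the groups completely, with 1315 to 1599 on depleted and 1001 to 1188 on wild-type arrays. By their brightest probe sets, 6.17% of all genes were separated in this direction. The second probe set gave a 1.32-fold rise (limma adjusted p = 0.0003). In a model of the variance without an intensity trend the brightest probe set had an adjusted p of 0.067.

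Tars, the threonine enzyme, read 324, 340, 300, 356 and 353 on depleted arrays, against 271, 300, 272, 318 and 260 on wild-type arrays. The groups overlapped and the 1.18-fold rise was at the edge of the threshold (log2 fold change 0.23 ± 0.07, SE; adjusted p = 0.048). It lost the call when any single array other than depleted replicate 3 or wild-type replicate 4 was left out (adjusted p up to 0.19 over all alternatives). The threonine enzyme-like gene Tarsl2, which lies outside the naming rule, changed the other way at a dim signal, with 16.4 ± 6.23 in depleted and 34.97 ± 5.86 in wild-type oocytes (SD, n = 5 each; 2.04-fold lower, limma adjusted p = 0.0018).

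Lars, which charges leucine tRNA, read 361, 319, 361, 328 and 353 on depleted arrays, against 424, 411, 430, 417 and 422 on wild-type arrays. All depleted arrays were below all wild-type arrays, as for 8.05% of all genes. The fall was 1.22-fold (log2 fold change -0.29 ± 0.06, SE; adjusted p = 0.0037), but under median centring it was -0.20 with an adjusted p of 0.070. Rars, the arginine enzyme, read 1456, 1793, 1587, 1611 and 1569 on depleted arrays, against 1811, 1872, 1934, 1953 and 1751 on wild-type arrays. Depleted replicate 2 overlapped the wild-type range. Its 1.16-fold fall (log2 fold change -0.22 ± 0.05, SE; adjusted p = 0.013) was -0.13 under median centring, with an adjusted p of 0.31.

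Iars, Lars and Rars all belong to the multisynthetase complex, in which the cytosolic enzymes for several amino acids are held by the scaffold proteins Aimp1, Aimp2 and Eef1e1. The rule found no aspartate enzyme, so the members need not cover the whole complex. Of the 7 enzymes of the complex among the members, 1 rose and 2 fell, or 42.9%, against 16.4% of all genes (7.26% higher and 9.12% lower). The other 4 had log2 fold changes of 0.12 for Qars (glutamine), -0.034 for Eprs (glutamate and proline), -0.022 for Kars (lysine) and -0.014 for Mars1 (methionine), none called, with 95% intervals within 1.2-fold in all 4. The scaffolds gave 0.13 for Aimp1, 0.13 for Aimp2 and -0.0044 for Eef1e1, and none was called. Outside the complex, 1 of 11 cytosolic or shared enzymes was called, Tars. No difference between enzymes inside and outside it was tested. By the fold of the catalytic domain, 1 of 16 tested class I enzymes was higher and 3 lower, and 1 of 15 class II enzymes was higher and 0 lower, beside the same 16.4% of all genes. The difference between the classes was not tested.

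The other cytosolic enzymes and the shared Gars did not pass the test. The phenylalanine enzyme, built from Farsa and Farsb chains, had values on opposite sides of 0, a log2 fold change of 0.20 ± 0.08 (SE) for Farsa and -0.033 ± 0.043 for Farsb, neither called. Gars, the glycine enzyme, averaged 1120 ± 49.9 in depleted and 1056 ± 44.6 in wild-type oocytes (SD, n = 5 each). Cars (cysteine) had a log2 fold change of 0.18 and Vars (valine) of 0.19. For Aars (alanine), Nars (asparagine), Sars (serine), Wars (tryptophan) and Hars (histidine), the log2 fold changes were 0.054, -0.024, -0.038, -0.046 and -0.049. None of these 10 genes was called. Yars, the cytosolic tyrosine enzyme, has a single member probe set on the array, which read 1.84 to 7.13 on depleted and 2.43 to 5.82 on wild-type arrays, above background on none, so its level was not measured.

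The promoters of Iars and Tars, the only synthetases called higher, are shown because both hold a match to a pattern for the amino acid response element. ATF4 acts at that element when amino acids are short or tRNAs are uncharged. Whether ATF4 acts at these matches was not tested. Windows and orientation are as for Dtd1, and capitals mark matches to the element searched, TGATGNAA on either strand, a search chosen after the calls were known.
Iars (GRCm38.p6, chr13:49681880-49682179, plus strand): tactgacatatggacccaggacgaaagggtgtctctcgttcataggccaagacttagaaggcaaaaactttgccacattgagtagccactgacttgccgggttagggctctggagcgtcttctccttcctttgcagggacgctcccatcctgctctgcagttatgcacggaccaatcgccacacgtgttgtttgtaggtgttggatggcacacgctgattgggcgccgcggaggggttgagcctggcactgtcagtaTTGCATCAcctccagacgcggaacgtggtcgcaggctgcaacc
Tars (GRCm38.p6, chr15:11399609-11399908, minus strand): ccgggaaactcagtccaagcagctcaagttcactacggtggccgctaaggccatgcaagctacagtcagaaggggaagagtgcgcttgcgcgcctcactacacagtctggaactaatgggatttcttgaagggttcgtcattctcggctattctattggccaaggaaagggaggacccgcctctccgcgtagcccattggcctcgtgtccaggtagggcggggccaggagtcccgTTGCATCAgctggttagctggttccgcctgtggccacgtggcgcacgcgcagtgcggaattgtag
In both the match reads TTGCATCA. The pattern was found in 3.97% of the 32851 promoter windows and in 5 of the 28 member genes with a window, the other 3 being Aars, Gars and Yars. Of those 3, Aars and Gars were not called and Yars was not measured. Among the synthetases called lower, Lars and Rars had no window to search, and the window of Lars2 held no match. These counts describe letters in the windows and were not tested.

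Mitochondrial enzymes were measured less precisely, with a median standard error of 0.11, against 0.069 for cytosolic enzymes. Of 14 tested mitochondrial enzymes, 0 were called higher and 1 lower, and of 16 cytosolic enzymes 2 were called higher and 2 lower, beside 7.26% of all genes higher and 9.12% lower. The median log2 fold change was 0.093 for the mitochondrial and -0.019 for the cytosolic enzymes, beside -0.017 for all genes. Both medians moved up under median centring, to 0.18 and 0.067, with all genes at 0.069. The intervals lay within 1.5-fold for 11 of the 14 mitochondrial enzymes and for all 16 cytosolic ones, so the array bounds changes of the mitochondrial set less tightly. No difference between the compartments was tested.

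Lars2, the mitochondrial leucine enzyme, was the only mitochondrial member called. It read 240, 176, 225, 202 and 222 on depleted arrays, against 265, 282, 234, 258 and 245 on wild-type arrays. Depleted replicate 1 overlapped the wild-type range. The 1.21-fold fall had an adjusted p of 0.0496 (log2 fold change -0.27 ± 0.09, SE) and lost the call when any single array other than depleted replicate 1 or wild-type replicate 3 was left out (adjusted p up to 0.20 over all alternatives). Its 2 dimmer probe sets also gave negative values, -0.24 and -0.60, not called. The cytosolic and mitochondrial leucine enzymes were thus both lower on the deposited scaling, and under median centring neither was called.

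Yars2, the mitochondrial tyrosine enzyme, separated the groups without being called. It read 48.6, 59.4, 49.5, 59.3 and 48.5 on depleted arrays, against 44.8, 39.7, 46.9, 39.0 and 35.8 on wild-type arrays, and all depleted arrays lay above all wild-type arrays, as for 6.17% of all genes. The log2 fold change was 0.34 ± 0.12 (SE; adjusted p = 0.073), and it was called under median centring and under quantile normalization, but the other Yars2 probe set gave -0.0054. Aars2 (alanine) had the most negative value of any member, -0.70 ± 0.30, at a low signal of 18.4 ± 8.27 in depleted and 29.0 ± 7.10 in wild-type oocytes (SD, n = 5 each). It was not called (adjusted p = 0.15), and without depleted replicate 5, which read 4.86 against a control level of 4.75 on that array, the value was -0.36. Iars2, at 16.3 ± 4.04 in depleted and 11.9 ± 4.19 in wild-type oocytes, had a log2 fold change of 0.40 ± 0.24, also not called.

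The remaining tested mitochondrial enzymes, none called, ran from -0.17 for Pars2 (proline) to 0.14 for Sars2 (serine) on the log2 scale. Rars2 (arginine), Fars2 (phenylalanine) and Tars2 (threonine) had 0.099 ± 0.080, -0.013 ± 0.076 and -0.011 ± 0.080 (SE). Ears2 (glutamate), Cars2 (cysteine), Vars2 (valine), Wars2 (tryptophan) and Nars2 (asparagine) lay between 0.076 and 0.13. Hars2 and Mars2, the histidine and methionine enzymes of mitochondria, were left out of the test because both probe sets of each were dim. Of these 4 probe sets, a single Hars2 probe set was above background on 1 wild-type array, and on no other array was any of the 4.

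Probe sets of the same gene did not always go the same way. Of 20 members with more than 1 tested probe set, 10 had probe sets of a single sign and 10 of both signs. The 2 Iars, 3 Lars2 and 4 Farsb probe sets were of a single sign, with Farsb from -0.23 to -0.033 and none called. Qars ran from -0.21 to 0.12. Of the 15 member probe sets left out as dim, 13 were above background on at most 1 array.

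**Figure D3:**
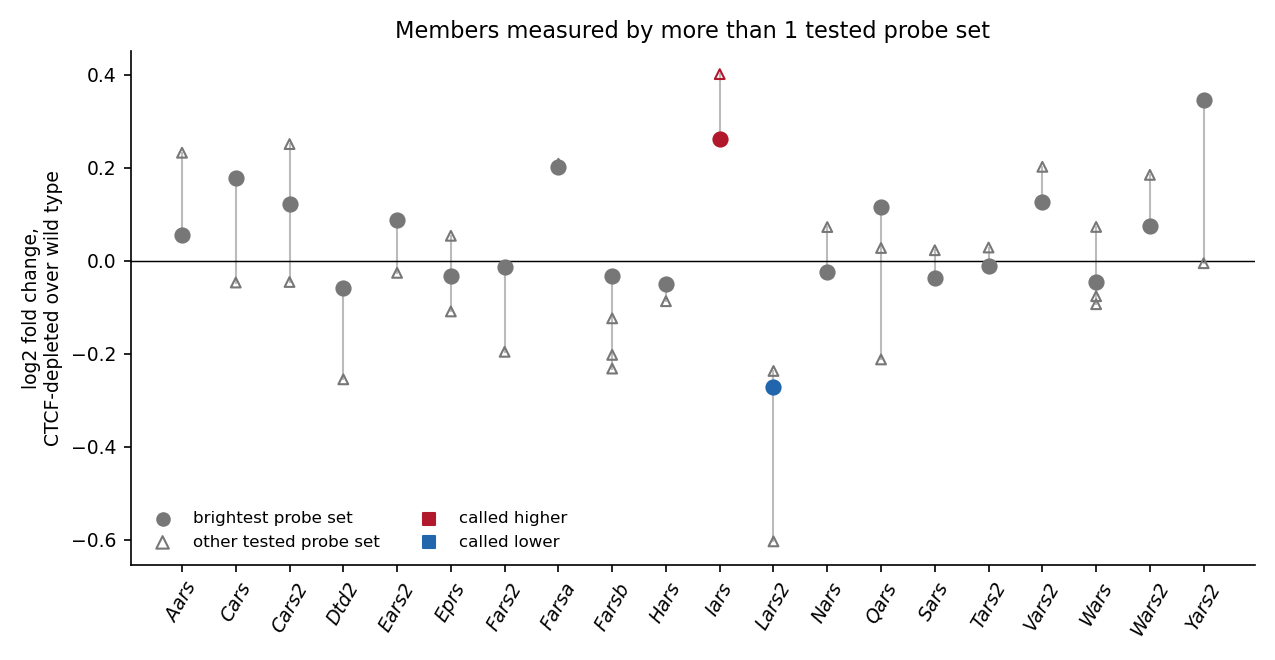
Log2 fold change, CTCF-depleted over wild type, of every tested probe set of the 20 members with more than 1; filled circles are the brightest probe set of a gene and open triangles the others, with red and blue for called rises and falls. The Iars probe sets are both called higher, and 10 genes have probe sets on both sides of 0.

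CTCF is known for insulating neighbouring genes from each other, so the genes next to Dtd1 were read as well. Of the 5 annotated genes on either side in the RefSeq order, 7 had a probe set and 5 were tested. Smim26, the next gene on one side, encodes a small membrane protein and fell: it read 185, 190, 206, 184 and 220 on depleted arrays, against 302, 313, 314, 323 and 356 on wild-type arrays, with no overlap. The fall was 1.63-fold (log2 fold change -0.70 ± 0.07, SE; adjusted p = 6.46e-06). Slc24a3, a sodium, potassium and calcium exchanger gene 5 places away on the other side, rose 1.19-fold (771 ± 55.3 in depleted and 649 ± 24.8 in wild-type oocytes, SD, n = 5 each; adjusted p = 0.0096), again without overlap. No nearer gene on that side was tested. Sec23b, Rbbp9 and Polr3f, beyond Smim26, gave -0.069, 0.27 and -0.23 on the log2 scale, none called. The other tested Polr3f probe sets gave 0.013, -0.20 and 0.028, also not called. Dtd1 and Smim26 thus changed in opposite directions, and among the 5 tested neighbours none had a change as large as that of Dtd1. Of these neighbours only Smim26 and Slc24a3 were called, beside 16.4% of all genes. All depleted arrays lay below all wild-type arrays for 8.05% of all genes and above them for 6.17%. Whether insulation by CTCF plays a part was not tested.

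**Figure D4:**
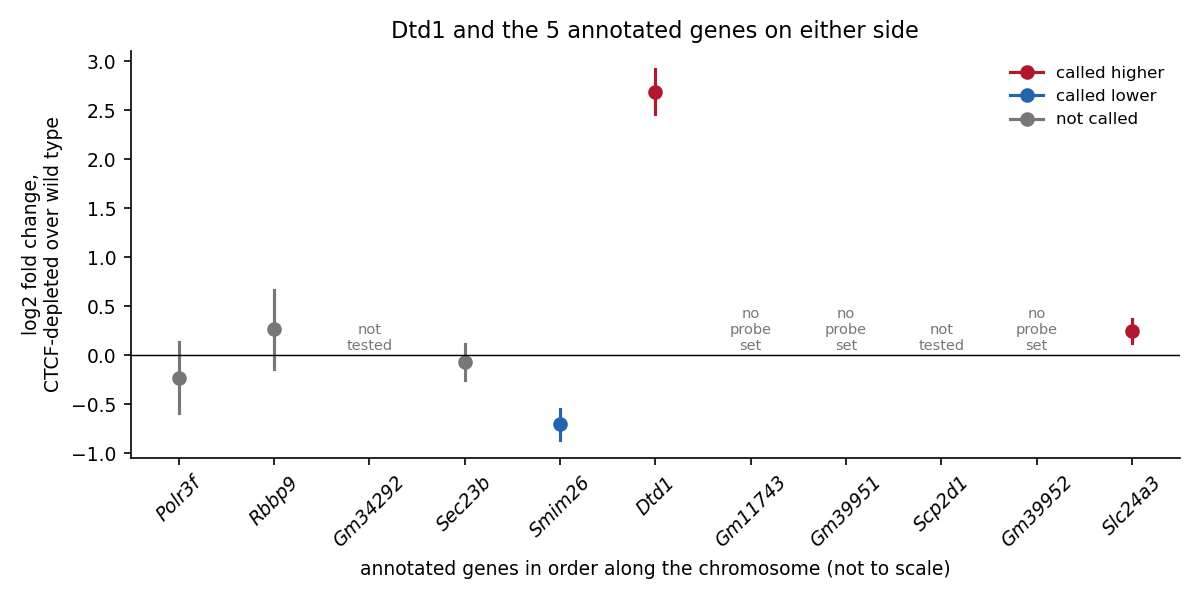
Log2 fold change, CTCF-depleted over wild type, with 95% interval, of Dtd1 and the 5 annotated genes on either side, in chromosomal order and not to scale. Dtd1 is at 2.69, Smim26 at -0.70 and Slc24a3 at 0.25; genes with no tested probe set are marked.

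Genes around the charging reaction were read from lists written from general knowledge, and their counts stand beside 16.4% of all genes called. Of 13 partners and other charging factors, 0 were called higher and 2 lower. Pstk, the kinase that acts on seryl-tRNA in the making of selenocysteine, fell 1.47-fold, to 100.9 ± 9.83 in depleted oocytes, against 150 ± 16.8 in wild-type oocytes (SD, n = 5 each; adjusted p = 0.00098), and Tarsl2 fell as given above. The list's median was -0.072 on the log2 scale. The amidotransferase genes Gatb, Gatc and Qrsl1, which make glutaminyl-tRNA in mitochondria, had -0.082, -0.28 and -0.25 on their brightest probe sets, none called. The other probe sets of Gatb and Qrsl1 gave 0.23 and 0.30, of the opposite sign.

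Among genes that deliver charged tRNA to the ribosome, 2 mitochondrial factors fell. Of 10 tested genes, 0 were higher and 2 lower: Tsfm, the mitochondrial exchange factor Ts, fell 1.56-fold (adjusted p = 0.0048) but was not called by the mean over its probe sets, and Gfm1, the mitochondrial elongation factor G, fell 1.27-fold (adjusted p = 0.0035) but was not called under median centring. Tufm, the mitochondrial factor Tu, had -0.14 on its brightest probe set and 0.20 and 0.41 on others, and the cytosolic Eef1a1 and Eef2 had 0.031 and -0.0037, none called. Whether cytosolic and mitochondrial factors differed was not tested.

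Of 21 tested genes that process or export tRNA precursors, 4 were higher and 1 lower, with a list median of 0.09. Pop7, a subunit of ribonuclease P and MRP, rose 1.79-fold, to 1102 ± 84.9 in depleted oocytes, against 617 ± 72.0 in wild-type oocytes (SD, n = 5 each; limma adjusted p = 1.18e-06). Trmt10c, of mitochondrial ribonuclease P, rose by 0.37 and Tsen54, of the tRNA splicing endonuclease, by 0.39 on the log2 scale, the Tsen54 call being lost with any of 6 single arrays left out. Rpp30 was 1.23-fold higher by its brightest probe set, yet the other gave -0.34 and the mean over both turned its direction. Pop1, the largest protein of ribonuclease P, fell 1.38-fold and was not called under median centring.

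For RNA polymerase III, which transcribes tRNA genes, 1 of 20 genes was higher and 2 lower, with a median of 0.00081. Its repressor Maf1 rose 1.31-fold, and the subunit gene Polr3k and the TFIIIC gene Gtf3c6 fell by 0.21 and 0.29 on the log2 scale. The other tested Maf1 probe sets gave 0.53, called, and 0.61, not called. Those of Polr3k gave 0.04, -0.13 and -0.32 and that of Gtf3c6 -0.05, none called. On the brightest probe sets the Maf1 call was lost with any of 4 single arrays left out. The Polr3k and Gtf3c6 calls were each lost with any of 5, and under median centring 0 were lower. Of 25 genes of the amino acid response, 4 were higher and 4 lower, with 5 and 1 under median centring. Ddit4, a brake on mTORC1, fell 1.88-fold, to 1051 ± 214 in depleted oocytes, against 1941 ± 120 in wild-type oocytes (SD, n = 5 each; adjusted p = 3.1e-05), and Asns, Chac1 and Slc7a11 fell 1.35-fold, 1.23-fold and 1.26-fold. The amino acid transporter genes Slc3a2 and Slc7a1 rose by 0.42 and 0.26 on the log2 scale, Stc2 by 0.65 and Cebpb by 0.31. Slc7a1, Stc2 and Cebpb were not called by the mean over their probe sets, Chac1 and Cebpb lost the call with any of 6 and any of 7 single arrays left out, and Asns without wild-type replicate 2. Atf4 and Eif2ak4, which encode the transcription factor of this response and the kinase that senses uncharged tRNA, had -0.068 and 0.0031 and were not called.

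**Figure D5:**
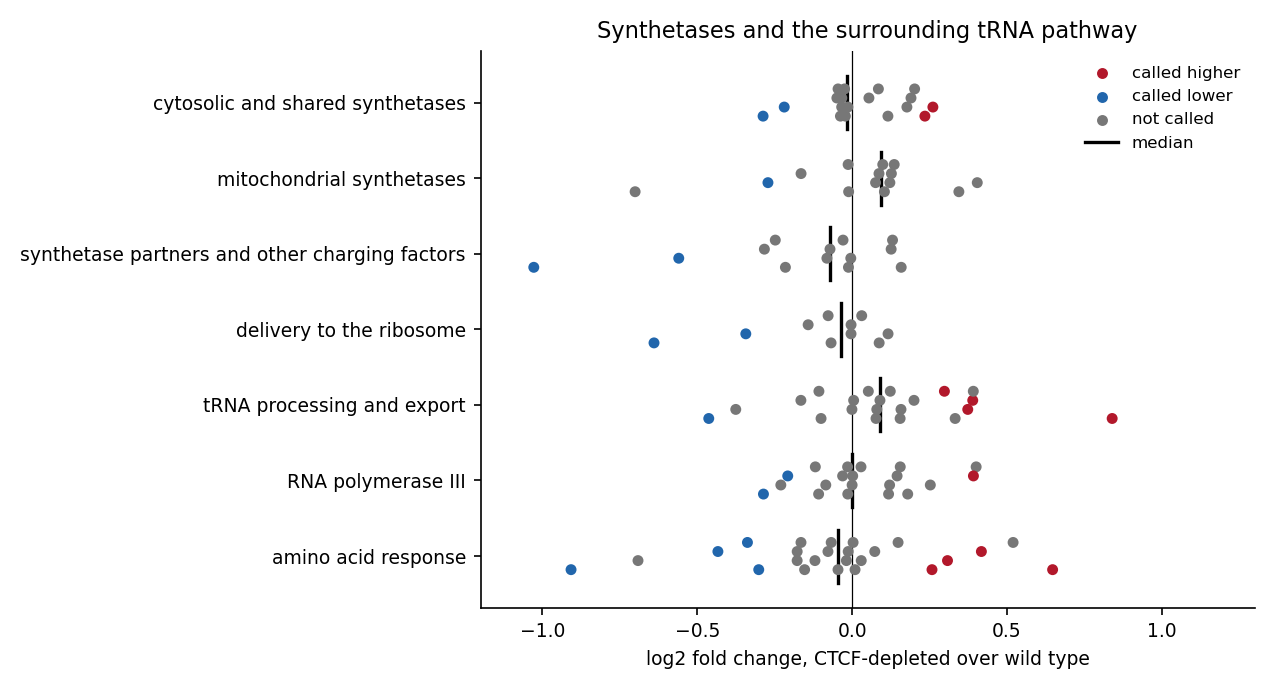
Log2 fold change, CTCF-depleted over wild type, of every tested gene (brightest probe set) among the synthetases and in 5 lists of the surrounding pathway; points are genes, red and blue mark called rises and falls, and black bars are medians. The synthetase medians lie at -0.018 for cytosolic and shared and 0.093 for mitochondrial enzymes.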

How the data were processed

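Oocyte RNA was turned into biotinylated targets and read on single-colour Affymetrix arrays, per the labels. The authors deposited linear intensity values produced by MAS5, according to the submitters' processing notes, with no version given in the sources used here. Trimmed means (2% at either end) were equal on all arrays. MAS5 corrects with mismatch probes, so low signals scatter widely.

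Titles gave groups and replicates. Values were log2(signal + 2.475), where 2.475 is the 25th percentile over all arrays, and this compresses changes of weak genes. Left out were 64 control probe sets and those whose mean log2 value was below the 40th percentile (5.13 in signal). The remaining 27022 were fitted with limma 3.58.1 in R 4.3.3 with an intensity trend, and p-values were Benjamini-Hochberg adjusted over all. Each gene is given by its brightest probe set. All 77 member probe sets matched RefSeq by gene ID. RefSeq gene order was used without coordinates, because the arrays name no build, and promoter windows are GRCm38.p6. Named are Ctcf, the members, called genes of 5 pathway lists and 5 neighbours on either side of Dtd1, plus genes singled out beside a count. Members, lists and tests were chosen with earlier results of these data known. The fit was also run on simulated data with planted changes and independent noise. Shifts shared by a whole array were not simulated. Alternatives changed the offset, filter, scaling, variance trend, replicate block, RNA quality covariate, threshold, gene summary, or left out each array.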

Additional observations from a re-analysis of the deposited data

Results flagged for a closer look

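Among the 122 groups of 5 arrays examined for the genes named above, 8 (6.56%) held an array set apart from the other 4. The gap took up most of the group's range. A share of about 1 in 20 assumes independent, normally distributed values. The groups share arrays, and that assumption was not tested. Members: Aars2 read 4.86 on depleted replicate 5, against 17.1 to 25.8 on the other depleted arrays, and without that array its log2 fold change was -0.36 in place of -0.70. Iars2 read 9.54 on depleted replicate 2, with 16.6 to 20.2 on the others. Nars2 read 24.4 on depleted replicate 1, with 12.3 to 14.5 on the others.

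Among pathway genes and neighbours, Tarsl2 read 27.4 on depleted replicate 5, with 12.1 to 14.9 on the other depleted arrays. Slc7a11 read 358 on the same array, with 301 to 314 on the others. Asns read 87.3 on wild-type replicate 2, with 61.0 to 66.4 on the others, and lost its call without that array. Stc2 read 85.0 on wild-type replicate 5, with 119 to 132 on the others. Sec23b read 105 on depleted replicate 2, with 129 to 140 on the others.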

How the results depend on the processing

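Across 21 alternatives Dtd1 stayed called with a log2 fold change of 2.50 to 2.80, and so did Ctcf on both probe sets. Of the 5 called synthetases none kept its call under all 22 alternatives: Iars lost it only without an intensity trend and Lars only under median centring, while Rars lost it under 3 alternatives, Tars under 13 and Lars2 under 16. Member genes called higher numbered 1 to 4 and lower 0 to 3 over all alternatives, and 2 to 3 each with single arrays left out. With no intensity trend 1 member gene was higher and 1 lower (2 and 1 probe sets), with cytosolic counts of 0 and 1. Median centring left 0 member genes and 0 member probe sets lower and 0 cytosolic and 0 mitochondrial falls, with 1 mitochondrial rise, as under quantile normalization, and moved the cytosolic median to 0.067. At an adjusted p under 0.01, 1 member gene and 1 member probe set were lower, 1 cytosolic gene was higher and 1 lower. Cytosolic rises numbered 1 with no filter, under quantile normalization and with the 3-prime to 5-prime covariate, and 1 to 2 with single arrays left out. The single mitochondrial fall was lost (0) with an offset of 1, with no filter, with no intensity trend, with the covariate, at an adjusted p under 0.01 and with the mean over probe sets, and numbered 0 to 1 with single arrays left out. Over all probe sets, 1481 higher and 1925 lower became 2179 and 1086 under median centring and 743 and 1078 at an adjusted p under 0.01. Leaving out depleted replicate 5, which kept most Ctcf signal, left Dtd1 called. Same-numbered arrays correlated at 0.0024 to 0.051 in their deviations from group means. For each depleted array, the highest correlation with a differently numbered wild-type array was 0.024 to 0.049. That was above the same-numbered value for replicates 1, 2 and 3 and below it for 4 and 5. These values do not settle whether the numbers pair samples. With the replicate block 3 member genes were higher and 3 lower, and 1592 probe sets were higher and 1989 lower, but the genes differed: Lars2 lost its call (adjusted p = 0.065) and Aars2 gained one (adjusted p = 0.035). The causes of these changes were not tested.

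Signs turned as follows. On the log2 scale, the values were, under median centring: Dtd2 0.0271, Eprs 0.0522, Fars2 0.073, Farsb 0.0527, Hars 0.0367, Kars 0.0641, Mars1 0.0722, Nars 0.0616, Sars 0.0482, Sec23b 0.0167, Tars2 0.0747, Wars 0.0405. Quantile normalization gave Dtd2 0.0302, Tars2 0.00164, the covariate Cars2 -0.00416, Dtd2 0.0508, Eprs 0.00571, Polr3f 0.00629, and the mean over probe sets Nars 0.024, Qars -0.0232, Rpp30 -0.0198, Tars2 0.00848. Leaving out single arrays turned a sign within these ranges: Aars -0.00593 to 0.121, Dtd2 -0.153 to 0.0166, Fars2 -0.0783 to 0.0318, Kars -0.0774 to 0.0126, Mars1 -0.0732 to 0.0315, Nars2 -0.0537 to 0.224, Tars2 -0.0508 to 0.0278, Wars -0.0955 to 0.0103, Wars2 -0.00754 to 0.155. In all, 16 of the 28 members not called turned sign somewhere, and 2 (Aars2 and Yars2) were called somewhere. Signal close to the control level limits Iars2, Nars2 and Dtd2.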
